A study of Mus musculus with 8 samples.

Results

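Glycolysis was examined here through 10 genes of glucose entry and of steps from glucose to lactate. They were compared between 2 diets in mouse acute myeloid leukaemia cells recovered after chemotherapy. Triose phosphate isomerase (Tpi1) and phosphoglycerate mutase (Pgam1), also steps of this route, are treated later among the remaining steps. The 10 genes were the transporter Slc2a1 and the enzyme genes Hk2, Gpi1, Pfkl, Aldoa, Gapdh, Pgk1, Eno1, Pkm and Ldha. They were found by Entrez number, through the RefSeq gene table of GRCm38.p6, in the 27179 genes of the deposited count table. All 10 were present and all passed the filter on low counts that left 13364 genes for testing.

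The leukaemia cells were wild type in the genotype label and carried MLL-AF9, the product of a leukaemic translocation that joins MLL to AF9. They also expressed GFP under what the labels call the ubiquitin transporter and luciferase under the beta-actin promoter. They came from 1 terminally ill mouse, were expanded in culture, and were injected into the veins of unconditioned male mice aged 8 to 10 weeks, so all recipients carried the same leukaemia and kept their own marrow. Mice of 1 group ate a diet without branched-chain amino acids (BCAA), which are valine, leucine and isoleucine, and gave 3 libraries, called BCAA-free replicates 1 to 3. Their treatment label reads BCAA, and that these amino acids were left out is taken from the series' own title and design text. The controls ate a standard amino acid diet and gave 5 libraries, called standard-diet replicates 1 to 5. Every mouse of both groups had the chemotherapy scheme named 5+3, which was cytarabine at 100 mg/kg on 5 days with doxorubicin at 3 mg/kg added on days 1 to 3. Living GFP-positive cells were sorted from crushed bones, and their polyadenylated RNA was sequenced as pairs of 38 bases. The labels call the libraries biological replicates.

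In glycolysis, a glucose transporter admits glucose and a hexokinase traps it as glucose 6-phosphate. An isomerase, a phosphofructokinase and an aldolase then convert the sugar into triose phosphates, and the enzymes from glyceraldehyde-3-phosphate dehydrogenase to pyruvate kinase turn these into pyruvate with a yield of ATP. Lactate dehydrogenase reduces pyruvate to lactate, which regenerates the cofactor NAD+. Proliferating leukaemia cells commonly run this route at a high rate, and many of its genes are known targets of the transcription factors HIF-1 and MYC.

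The promoters of 4 members are printed because they hold the 5 letters ACGTG, the core to which HIF-1 is known to bind and which is also the centre of the MYC-type motif CACGTG. Each run covers 250 bases before to 50 bases after the RefSeq transcription start in GRCm38.p6, which for Ldha lies inside the span of the gene, 5′ to 3′ on the strand of the gene. Capitals mark ACGTG on either strand and CACGTG. The windows are chr4:119108495-119108794 on the plus strand for Slc2a1, chr6:82774405-82774704 on the minus strand for Hk2, chrX:106186850-106187149 on the plus strand for Pgk1 and chr7:46845554-46845853 on the plus strand for Ldha.
Slc2a1: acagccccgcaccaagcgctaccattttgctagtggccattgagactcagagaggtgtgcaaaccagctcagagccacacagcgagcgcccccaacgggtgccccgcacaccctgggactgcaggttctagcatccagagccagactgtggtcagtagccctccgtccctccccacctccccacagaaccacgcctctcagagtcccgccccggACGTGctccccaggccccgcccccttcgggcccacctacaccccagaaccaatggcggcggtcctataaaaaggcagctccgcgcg
Hk2: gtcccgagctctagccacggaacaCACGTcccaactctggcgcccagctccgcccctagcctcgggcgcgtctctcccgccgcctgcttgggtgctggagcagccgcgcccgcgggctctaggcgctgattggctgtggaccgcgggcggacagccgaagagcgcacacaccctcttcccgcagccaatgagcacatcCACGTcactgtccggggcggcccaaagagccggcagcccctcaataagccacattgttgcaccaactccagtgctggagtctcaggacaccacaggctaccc
Pgk1: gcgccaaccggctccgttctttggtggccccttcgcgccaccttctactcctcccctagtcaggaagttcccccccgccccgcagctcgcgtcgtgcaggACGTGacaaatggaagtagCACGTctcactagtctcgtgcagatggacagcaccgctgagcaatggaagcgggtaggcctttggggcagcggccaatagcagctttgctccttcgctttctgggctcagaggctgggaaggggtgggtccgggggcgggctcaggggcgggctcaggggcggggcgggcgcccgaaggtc
Ldha: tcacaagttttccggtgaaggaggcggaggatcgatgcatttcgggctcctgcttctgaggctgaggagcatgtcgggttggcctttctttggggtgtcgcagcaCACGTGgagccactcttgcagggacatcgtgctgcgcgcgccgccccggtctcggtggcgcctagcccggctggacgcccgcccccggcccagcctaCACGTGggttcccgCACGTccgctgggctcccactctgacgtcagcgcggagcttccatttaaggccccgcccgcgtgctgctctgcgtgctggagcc

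ACGTG was found in the windows of 5 of the 10 members, those 4 and Gapdh, and in 19.7% of the 27025 mouse promoter windows of the same length. In Slc2a1 it began 36 bases before the start. In Hk2 it lay 226 and 52 bases before it, and in Pgk1 150 and 131 bases before it. Ldha was the single member with CACGTG, which it held at 145 and 48 bases before its start, with a further ACGTG on the opposite strand at 34 bases. CACGTG was present in 7.24% of all windows, and each CACGTG also counts as ACGTG on both strands. The windows of Gpi1, Pfkl, Aldoa, Eno1 and Pkm did not hold these letters.

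Totals per library were 14851240 to 30306697 counts in BCAA-free mice and 16588662 to 38966911 in standard-diet mice, and the 10 genes together took 0.301% to 0.357% of them in BCAA-free mice and 0.264% to 0.370% in standard-diet mice. The label of a myeloid leukaemia was checked on 8 markers, which summed to 9351 to 11480 CPM (counts per 1000000, on TMM-scaled library sizes) in BCAA-free mice and 11810 to 15000 CPM in standard-diet mice, largely from the granule gene Mpo. Hoxa9 and Meis1, known targets of MLL fusions, averaged 165 and 120 CPM in BCAA-free mice and 175 and 128 CPM in standard-diet mice. Mature neutrophil markers (7 genes) summed to 1416 to 5797 CPM in BCAA-free mice and 721 to 5918 CPM in standard-diet mice, with the highest sums in BCAA-free replicate 2 and standard-diet replicate 3. In BCAA-free mice, the 7 macrophage markers summed to 220 to 299 CPM, the 6 erythroid markers found to 4.22 to 46.2, the 5 B cell markers to 144 to 298, the 5 T cell markers to 3.59 to 27.6 and the 5 of stroma and endothelium to 39.5 to 61.4 CPM. In standard-diet mice, the same lists summed to 297 to 400 CPM for macrophages, 3.41 to 14.5 for erythroid cells, 101 to 350 for B cells, 1.30 to 4.35 for T cells and 25.3 to 43.0 CPM for stroma and endothelium. The macrophage sums came mostly from Vcam1 and Adgre1, with lower means in BCAA-free mice (158 and 74.0 CPM) than in standard-diet mice (221 and 115 CPM). The other 5 macrophage markers, C1qa, C1qb, C1qc, Cd5l and Mrc1, had edgeR fold changes of 1.88 to 3.13 for BCAA-free over standard-diet mice. None of the 7 macrophage markers passed in edgeR. No gene of these lists was at 0 in all libraries, and edgeR called 3 of the 5 B cell markers and 1 of the 5 stromal ones. The 5 genes of dissociation stress and RNA quality, none of them called, summed to 19.1 to 62.2 CPM in BCAA-free mice and 8.29 to 11.7 CPM in standard-diet mice.

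Taken alone, part of the 38-base reads of several members could not be assigned to 1 gene. Single words were compared rather than pairs of reads, so the share of pairs that match several genes was not measured. The share of a member's 38-base words that also occurs in a transcript of another annotated mouse gene was 83.5% for Gapdh, 75.4% for Eno1, 68.2% for Pgk1 and 43.9% for Pkm. It was 32.0% for Gpi1, 27.3% for Ldha and 24.7% for Aldoa. It was 2.1% for Slc2a1, 0.4% for Pfkl and 0.0% for Hk2. At least 10% of the words of Gapdh occurred in each of 95 other genes, 90 of them pseudogenes. Of these genes, 8 were rows of the count table, and together they held 297, 296 and 344 CPM in BCAA-free mice and 338, 263, 316, 326 and 278 CPM in standard-diet mice, more than Gapdh itself in every library. The sources used here do not say how reads with several matches were counted. The levels of Gapdh, Eno1 and Pgk1 are therefore uncertain.

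**Figure D1:**
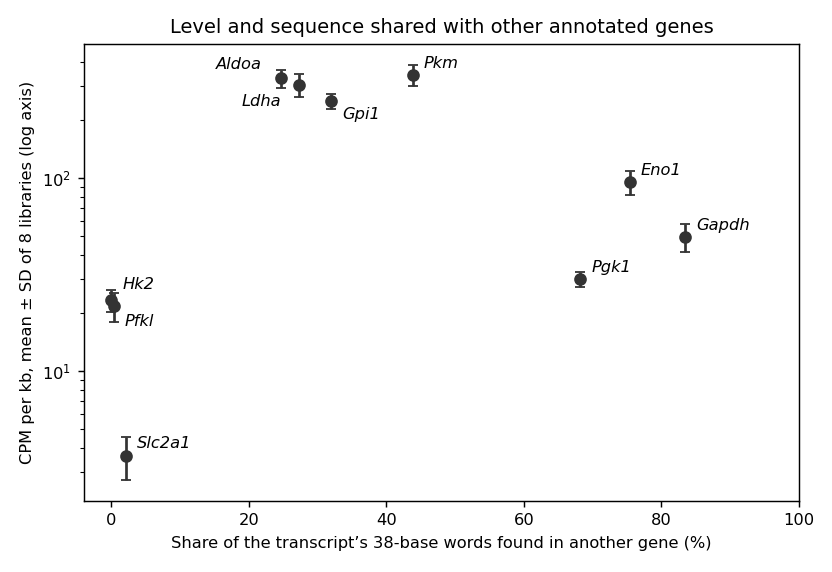
The horizontal axis gives the percentage of 38-base words of each member's transcript that occur in another annotated gene, and the vertical log axis gives the level in CPM per kilobase of transcript as the mean of 8 libraries with the SD. Gapdh, Eno1 and Pgk1 lie at the right with 68.2% to 83.5% shared and levels between 29.9 and 95.6 CPM per kb, below Pkm, Aldoa, Ldha and Gpi1.

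Per kilobase of transcript, the members spanned from 3.64 ± 0.922 CPM per kb for Slc2a1 to 343 ± 43.5 CPM per kb for Pkm (mean ± SD of all 8 libraries). Aldoa followed Pkm with 328 ± 34.5 CPM per kb, Ldha with 305 ± 41.9 and Gpi1 with 251 ± 22.1. The ranges of these 4 overlapped from each to the next. Eno1 stood at 95.6 ± 13.7 CPM per kb and Gapdh at 49.5 ± 8.03, each below the preceding member in all 8 libraries and without overlap of the ranges. Pgk1 followed at 29.9 ± 2.74 CPM per kb, again without overlap with the gene above it, but it overlapped in range with Hk2 at 23.3 ± 3.08, and Hk2 with Pfkl at 21.6 ± 3.67. Slc2a1 was lowest in all 8 libraries. Among all tested genes with a transcript length, Pkm ranked at percentile 99.4 and Slc2a1 at percentile 27.2 of the level per kb.

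The comparison of diets asked whether the leukaemia cells of mice without dietary BCAA differ, after chemotherapy, in the expression of these genes. No member passed in edgeR's quasi-likelihood test at an adjusted p of 0.05, and the lowest adjusted p was 0.192, for Hk2. None passed in DESeq2 or limma-voom either. Over all tested genes, 101 passed, which is 0.756%, with 0.217% higher and 0.539% lower. At an unadjusted p under 0.05 there was 1 member, Hk2, which was lower, against 13.5% of all tested genes, 6.21% higher and 7.26% lower. The log2 fold change was negative for 6 members and positive for 4, where 52.6% of all tested genes were positive, with a median of -0.05, beside a median of 0.01 over all tested genes. The 95% intervals of 9 members lay within a change of 1.5-fold in either direction, the exception being Slc2a1. For these 9 a larger difference lies outside the interval. Gapdh, Eno1, Pgk1 and Pkm share 83.5%, 75.4%, 68.2% and 43.9% of their 38-base words with other genes. Their intervals therefore hold for the reads as counted, which may be only a part of their reads. In such bulk samples, fewer cells of a type that expresses a gene and less RNA per cell cannot be told apart.

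Slc2a1 encodes GLUT1, the widely expressed basal glucose transporter (gene 20525, chromosome 4, 119108745 to 119137330). Slc2a1 had 12.2, 9.26 and 10.9 CPM in BCAA-free mice and 17.7, 8.40, 13.9, 12.8 and 9.74 CPM in standard-diet mice. The BCAA-free libraries lay inside the standard-diet range, in which replicate 1 was highest and replicate 2 lowest. The log2 fold change was -0.22 (SE 0.24, 95% interval -0.73 to 0.29, edgeR adjusted p = 0.735). With counts between 148 and 694 per library it was the least precise member.

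Hk2 encodes the inducible hexokinase 2, which binds to mitochondria (gene 15277, chromosome 6, 82725025 to 82774454). Hk2 had 104, 112 and 118 CPM in BCAA-free mice and 142, 149, 131, 148 and 123 CPM in standard-diet mice. All 3 BCAA-free libraries were below all 5 standard-diet libraries, the single such separation among the members, beside 4.68% of all tested genes, or 8.84% with separations in either direction. Hk2 averaged 111 ± 6.78 CPM in BCAA-free mice and 139 ± 11.6 CPM in standard-diet mice (SD, n = 3 and 5). The log2 fold change was -0.32 (SE 0.10, 95% interval -0.54 to -0.10), with an unadjusted p of 0.00780 in edgeR and an adjusted p of 0.192, so it did not pass. Its adjusted p stayed between 0.0959 and 0.668 over 16 alternatives. The summed leukaemia markers were likewise lower, and the summed dissociation genes higher, in all 3 BCAA-free libraries. Among the leukaemia markers this held for Mpo alone, while Hoxa9, Meis1, Kit, Itgam, Cd34, Elane and Ctsg overlapped between diets. Jun, Egr1 and Hspa1a among the dissociation genes overlapped as well. The part of these lists in the Hk2 values was not tested.

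Gpi1 encodes glucose-6-phosphate isomerase, which makes fructose 6-phosphate (gene 14751, chromosome 7, 34201327 to 34230336). Gpi1 had 685, 677 and 768 CPM in BCAA-free mice and 838, 643, 731, 759 and 679 CPM in standard-diet mice. The diets overlapped, and the log2 fold change was -0.04 (SE 0.11, 95% interval -0.27 to 0.19, edgeR adjusted p = 0.912). Pfkl encodes the liver-type phosphofructokinase, a subunit of the enzyme that commits the sugar to glycolysis (gene 18641, chromosome 10, 77986947 to 78009807). Pfkl had 68.7, 64.0 and 94.7 CPM in BCAA-free mice and 104, 82.9, 74.1, 84.0 and 71.2 CPM in standard-diet mice. BCAA-free replicate 3 stood above 4 of the 5 standard-diet libraries, while the other BCAA-free libraries were the lowest of all 8. The log2 fold change of Pfkl was -0.13 (SE 0.15, 95% interval -0.44 to 0.18, adjusted p = 0.738).

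Aldoa encodes aldolase A, which splits fructose 1,6-bisphosphate (gene 11674, chromosome 7, 126795234 to 126800994). Aldoa had 479, 478 and 530 CPM in BCAA-free mice and 613, 456, 516, 540 and 454 CPM in standard-diet mice. The BCAA-free libraries again fell inside the standard-diet range (log2 fold change -0.06, SE 0.11, 95% interval -0.30 to 0.18, edgeR adjusted p = 0.875). Gapdh encodes the dehydrogenase that oxidises glyceraldehyde 3-phosphate (gene 14433, chromosome 6, 125161852 to 125166467). Gapdh had 77.6, 58.4 and 83.4 CPM in BCAA-free mice and 84.7, 54.0, 67.3, 73.8 and 63.4 CPM in standard-diet mice. These ranges overlapped, with a log2 fold change of 0.09 (SE 0.15, 95% interval -0.22 to 0.40, adjusted p = 0.839). Pgk1 encodes phosphoglycerate kinase 1, the first ATP-forming step (gene 18655, chromosome X, 106187100 to 106203699). Pgk1 had 57.5, 47.8 and 50.6 CPM in BCAA-free mice and 55.4, 53.7, 58.8, 62.8 and 50.4 CPM in standard-diet mice. BCAA-free replicate 2 was the lowest library, within an overlap of the diets (log2 fold change -0.11, SE 0.12, 95% interval -0.37 to 0.14, adjusted p = 0.728).

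Eno1 encodes alpha-enolase, which forms phosphoenolpyruvate (gene 13806, chromosome 4, 150236708 to 150248879). Eno1 had 221, 192 and 202 CPM in BCAA-free mice and 232, 146, 192, 198 and 166 CPM in standard-diet mice. Its log2 fold change was 0.13 (SE 0.13, 95% interval -0.14 to 0.41, edgeR adjusted p = 0.703). The retrogene copy Eno1b, in which 73.7% of the Eno1 words occur, held more counts than Eno1 in every library, at 336 ± 19.4 CPM in BCAA-free mice and 318 ± 45.7 CPM in standard-diet mice (SD, n = 3 and 5). With the counts of both added, the log2 fold change was 0.10 (SE 0.12, adjusted p = 0.764).

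Pkm encodes the muscle-type pyruvate kinase, whose splice forms counts per gene do not tell apart (gene 18746, chromosome 9, 59656576 to 59679372). Pkm had 811, 782 and 982 CPM in BCAA-free mice and 993, 692, 768, 861 and 784 CPM in standard-diet mice. Standard-diet replicate 1 was highest and replicate 2 lowest, with all BCAA-free libraries between them (log2 fold change 0.07, SE 0.12, 95% interval -0.19 to 0.33, edgeR adjusted p = 0.861). Ldha encodes the lactate dehydrogenase A chain, which favours lactate formation (gene 16828, chromosome 7, 46842274 to 46855627). Ldha had 595, 535 and 604 CPM in BCAA-free mice and 591, 378, 608, 576 and 544 CPM in standard-diet mice. Standard-diet replicate 2 stood far below the other 7 libraries. The log2 fold change of Ldha was 0.10 (SE 0.13, 95% interval -0.18 to 0.38, adjusted p = 0.796), and it was -0.0051 without that library.

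**Figure D2:**
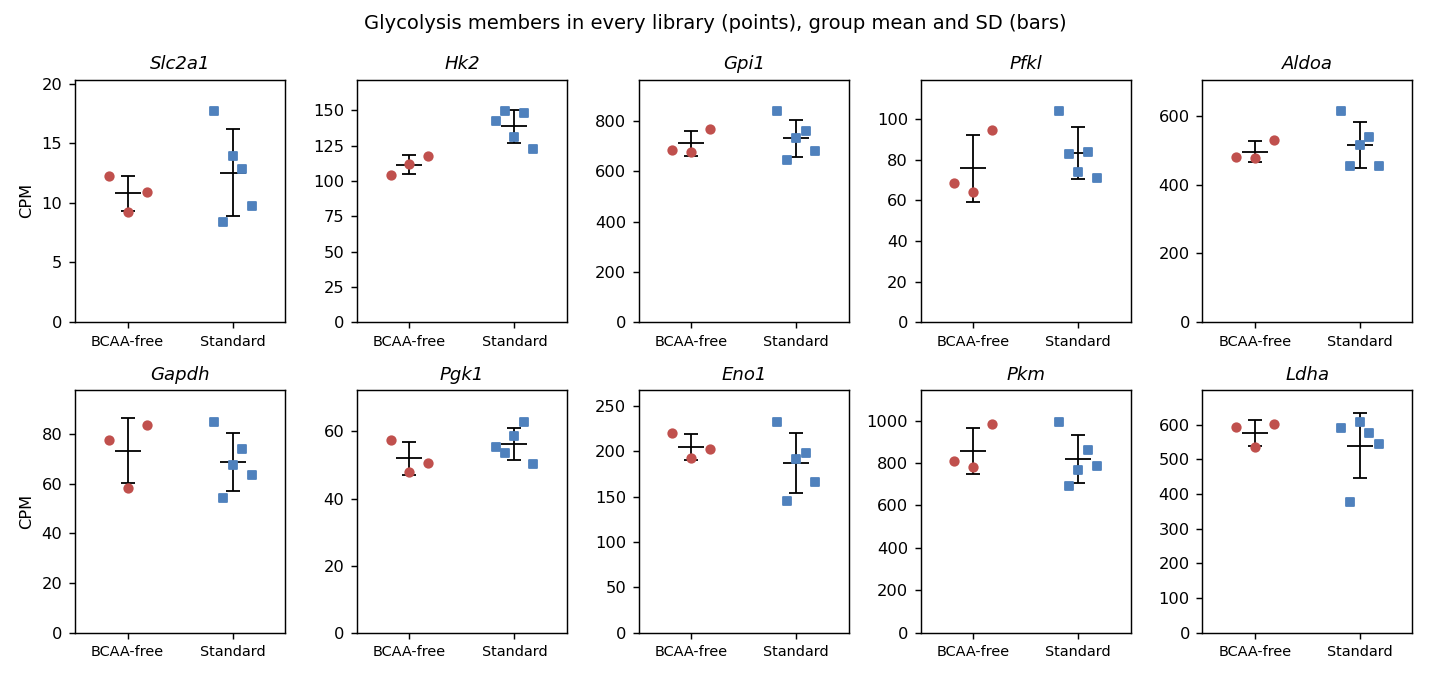
Each panel shows 1 member, with CPM on the vertical axis from 0, the 3 BCAA-free libraries as red circles on the left, the 5 standard-diet libraries as blue squares on the right, and the group mean with the SD in black. The diets overlap in every panel but Hk2, where the BCAA-free libraries lie between 104 and 118 CPM and the standard-diet libraries between 123 and 149 CPM.

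The 5 members whose promoter window held ACGTG had log2 fold changes of -0.22 (Slc2a1), -0.32 (Hk2), 0.09 (Gapdh), -0.11 (Pgk1) and 0.10 (Ldha). The 5 whose window did not hold it lay between -0.13 (Pfkl) and 0.13 (Eno1). Both sets had members on either side of 0.

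Within a diet, many members were high or low in the same libraries. Standard-diet replicate 1 was the highest of the 8 libraries for 7 members, and standard-diet replicate 2 was the lowest for 6. The mean deviation of the members from their own average was 0.00, -0.15 and 0.08 on the log2 scale in the BCAA-free libraries and 0.26, -0.20, 0.03, 0.11 and -0.12 in the standard-diet libraries. The summed level of the 10 genes was 3170 ± 249 CPM in BCAA-free mice and 3151 ± 381 CPM in standard-diet mice (SD, n = 3 and 5). Hk2 departed from this shared pattern, since in standard-diet replicate 2 it reached 149 CPM, its highest value, where 6 other members were at their lowest. Standard-diet replicate 1 was also the most deeply sequenced library, with 38966911 counts, and the part of depth in its high values was not tested.

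**Figure D3:**
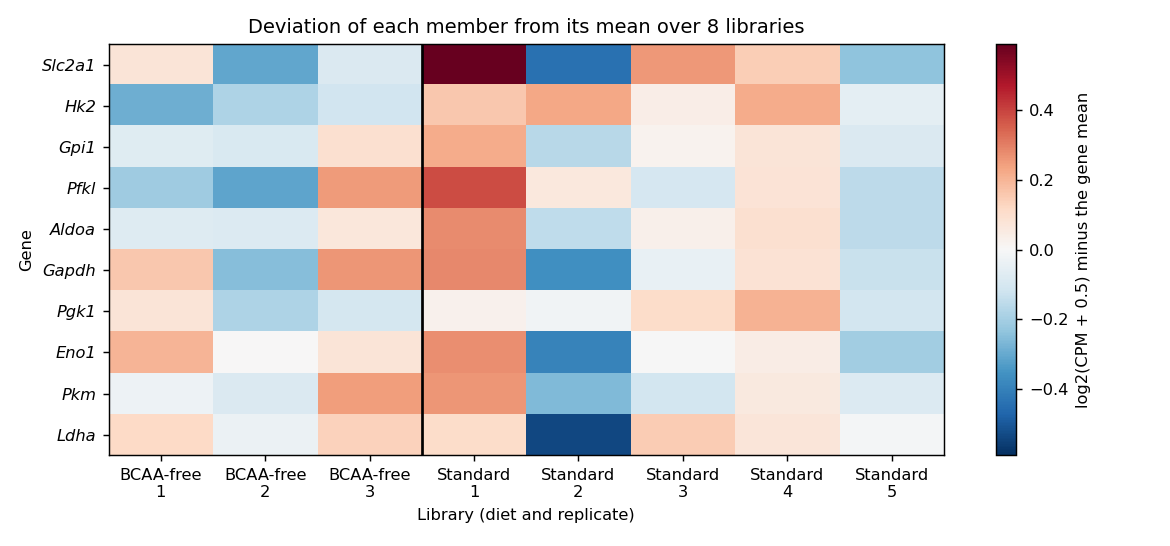
Rows are the 10 members and columns the libraries, the 3 BCAA-free ones on the left, and colour gives log2(CPM + 0.5) minus the mean of that gene over 8 libraries. The column of standard-diet replicate 1 is mostly red, with a mean deviation of 0.26, and that of standard-diet replicate 2 mostly blue, with -0.20, while Hk2 is blue in all 3 BCAA-free columns.

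The coefficient of variation over the 8 libraries ran from 8.82% for Gpi1 to 25.3% for Slc2a1. Slc2a1 and Pfkl had the largest SD on the log2 scale, at 0.34 and 0.24. Among 9014 other genes with at least 10 CPM, those whose log2 CPM followed Slc2a1 closely over the 8 libraries included Mapkapk2 (Pearson's r = 0.960) and Cdca3 (0.953). For Pfkl the closest were Ganab (0.979), Eml2 (0.973) and Atf6b (0.949). These are among the highest of many candidates over few libraries and stand as a description.

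Of all 89 companion genes tested in the lists that follow, edgeR and limma-voom called Fbp1 alone, while DESeq2 called Fbp1, Txnip and Ddit4 higher and Hif1a lower. The isoforms and remaining steps of the pathway were taken as a list of 25 genes, of which 19 passed the filter. None was called in either direction, 2 had an unadjusted p under 0.05, the log2 fold change was above 0 in 9 and below 0 in 10, and the median was -0.04. Pgam1, the phosphoglycerate mutase between Pgk1 and Eno1, was at 190, 204 and 201 CPM in BCAA-free mice and at 251, 214, 229, 257 and 225 CPM in standard-diet mice. All BCAA-free values lay below all standard-diet values, but the adjusted p was 0.305 (log2 fold change -0.24, SE 0.10, edgeR). Of the 38-base words of Pgam1, 41.9% also occur in other annotated genes. Slc2a8, a glucose transporter of intracellular membranes, was at 5.97, 7.21 and 7.51 CPM in BCAA-free mice and at 4.23, 2.89, 3.93, 2.22 and 5.02 CPM in standard-diet mice. Its BCAA-free values were all higher, with a log2 fold change of 0.91 (SE 0.30) and an adjusted p of 0.192. Tpi1, the triose phosphate isomerase, averaged 298 ± 27.5 CPM in BCAA-free mice and 309 ± 42.8 CPM in standard-diet mice (SD, n = 3 and 5; adjusted p = 0.901).

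Several steps had more than 1 isoform. Hexokinase 3 (Hk3), the form of myeloid cells, was the most abundant hexokinase per length, at 149 CPM per kb in BCAA-free mice and 156 in standard-diet mice. Hk1 stood at 47.1 CPM per kb in BCAA-free mice and 52.0 in standard-diet mice, and Hk2 at 20.2 in BCAA-free mice and 25.2 in standard-diet mice. The platelet-type phosphofructokinase Pfkp was at 28.6 CPM per kb in BCAA-free mice and 32.3 in standard-diet mice. Pfkl was lower, at 20.3 in BCAA-free mice and 22.3 in standard-diet mice. Pfkp shares 17.3% of its 38-base words with another gene of the count table, so its level is less certain. Slc2a3, the high-affinity transporter GLUT3, was at 5.22 CPM per kb in BCAA-free mice and 3.71 in standard-diet mice, near Slc2a1 at 3.31 in BCAA-free mice and 3.84 in standard-diet mice. Ldhb, the heart-type lactate dehydrogenase chain, and the brain-type aldolase Aldoc were nearly absent, at 1.61 and 0.304 CPM per kb in BCAA-free mice and 1.52 and 0.711 in standard-diet mice.

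The log2 ratio of a member to its paralog was compared between diets within each library, which removes library size and gene length, for 6 pairs by a two-sided exact permutation test over the 56 splits, where the smallest possible p is 0.0179. Adjusted over the 6 ratios, a single ratio at that p would have an adjusted p of 0.107, and at least 3 ratios must be low together for any to pass, so the test could not call 1 ratio alone. None passed. The log2 ratio of Hk2 to Hk3 was -2.09 ± 0.17 in BCAA-free mice and -1.86 ± 0.11 in standard-diet mice (SD, n = 3 and 5; exact p = 0.0893, adjusted p = 0.357). That of Hk2 to Hk1 was -0.86 ± 0.13 in BCAA-free mice and -0.68 ± 0.17 in standard-diet mice (SD, n = 3 and 5; exact p = 0.179, adjusted p = 0.357). The ratio of Slc2a1 to Slc2a3 was -0.24, -2.06 and 0.31 in BCAA-free mice and 0.41, 0.55, -1.31, 0.11 and 0.23 in standard-diet mice (adjusted exact p = 0.589). The low values, in BCAA-free replicate 2 and standard-diet replicate 3, came with 38.8 and 34.4 CPM of Slc2a3, against 5.73 to 14.4 CPM in the other 6 libraries, and these are the libraries with the highest neutrophil marker sums, 5797 and 5918 CPM. The part of neutrophil RNA in these values was not tested. The ratios Pfkl to Pfkp, Aldoa to Aldoc and Ldha to Ldhb differed between diets by 0.03, 1.38 and -0.14 (adjusted exact p = 0.857, 0.357 and 0.857).

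**Figure D4:**
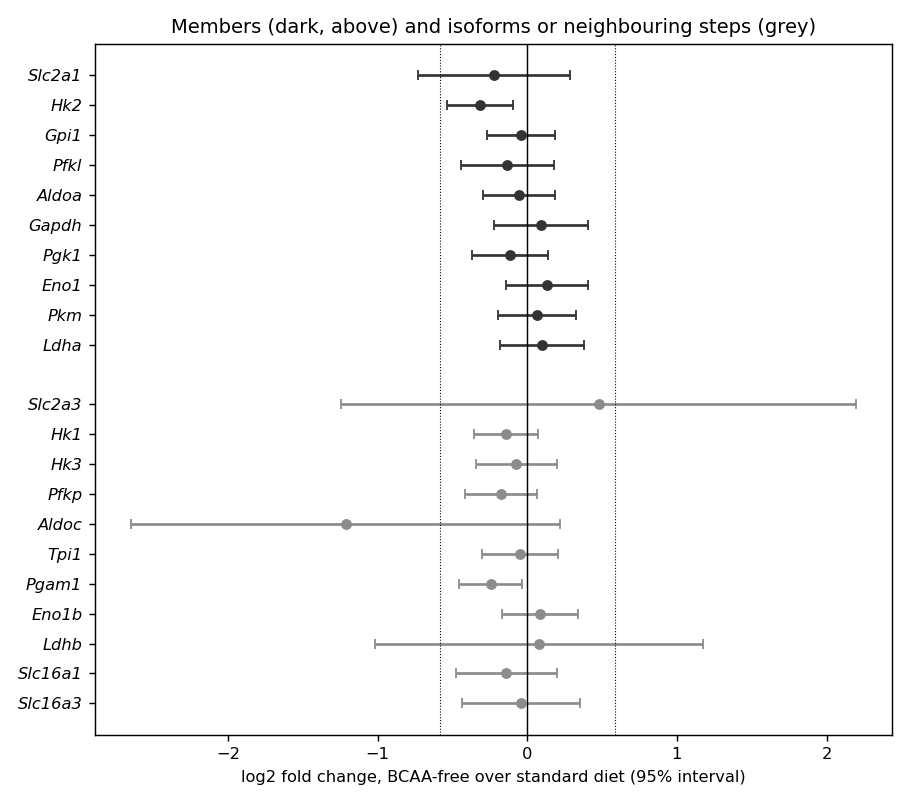
Points are log2 fold changes of the BCAA-free over the standard diet and bars their 95% intervals, with the 10 members above in dark and 11 isoforms or neighbouring steps below in grey, and dotted lines at a change of 1.5-fold. The interval of Hk2, from -0.54 to -0.10, is the single one among the members that leaves out 0, and the low genes Slc2a3, Aldoc and Ldhb have the widest intervals.

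Genes that steer the flux held the single call. Of 14 tested regulators, 1 rose and none fell, 5 had an unadjusted p under 0.05 (3 higher and 2 lower), and the log2 fold change was above 0 in 6 and below 0 in 8, with a median of -0.11. The diets did not overlap for 4 of the 14, of which 3 were above and 1 below. Over all tested genes, 8.84% did not overlap (4.17% above and 4.68% below). An unadjusted p under 0.05 was found for 13.5% of all tested genes (6.21% higher and 7.26% lower). The regulators were not tested as a set. Fbp1, the fructose bisphosphatase that opposes phosphofructokinase, was at 12.7, 16.6 and 17.1 CPM in BCAA-free mice and at 9.12, 6.18, 5.75, 8.82 and 9.31 CPM in standard-diet mice. It rose 1.98-fold (log2 fold change 0.98, SE 0.22, edgeR adjusted p = 0.0490), in a test that called 0.217% of all genes higher. The sum of the dissociation genes, and among the macrophage markers C1qa, C1qc and Cd5l, were also higher in all 3 BCAA-free libraries, and their part in this result was not tested. The call lay at the threshold and was lost in 12 of 16 alternatives, among them each of the 8 fits without 1 library, with an adjusted p of up to 0.368 and a log2 fold change that stayed between 0.83 and 1.16.

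Txnip, which restrains glucose uptake and is induced by the glucose-sensing factor MondoA, was at 97.9, 135 and 109 CPM in BCAA-free mice and at 78.8, 86.6, 77.7, 80.4 and 91.2 CPM in standard-diet mice. All 3 BCAA-free libraries were higher than the other 5, as were 4.17% of all tested genes, and the log2 fold change was 0.46 (SE 0.12, edgeR adjusted p = 0.0786). Arrdc4, a related arrestin and MondoA target named after its values were seen, was at 15.4, 17.4 and 25.1 CPM in BCAA-free mice and at 11.1, 12.1, 10.7, 12.8 and 14.6 CPM in standard-diet mice. It did not overlap either (log2 fold change 0.66, SE 0.19, adjusted p = 0.133). Mlxip, which encodes MondoA itself, was also named after its values were seen, with a log2 fold change of 0.09 (adjusted p = 0.779). DESeq2 called Txnip (adjusted p = 0.0205), as did edgeR without the filter (0.0410), and neither called Arrdc4. Txnip did not pass in the other 14 of 16 alternatives. Its adjusted p reached 0.528 under them, and its log2 fold change stayed between 0.29 and 0.56.

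Hif1a, the oxygen-regulated subunit of HIF-1, was at 148, 117 and 97.6 CPM in BCAA-free mice and at 150, 168, 195, 180 and 163 CPM in standard-diet mice. The BCAA-free libraries were all lower, with BCAA-free replicate 1 just below standard-diet replicate 1 (log2 fold change -0.50, SE 0.13, edgeR adjusted p = 0.0896). DESeq2 called it lower (adjusted p = 0.0196), as did edgeR without the filter (0.0186) and without BCAA-free replicate 1 (0.0436), and the adjusted p reached 0.594 under the alternatives. Myc averaged 259 ± 43.7 CPM in BCAA-free mice and 239 ± 19.1 CPM in standard-diet mice (SD, n = 3 and 5; adjusted p = 0.698). Pfkfb3, which makes the activator of phosphofructokinase, averaged 119 ± 2.74 CPM in BCAA-free mice and 130 ± 9.45 CPM in standard-diet mice (adjusted p = 0.620).

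**Figure D5:**
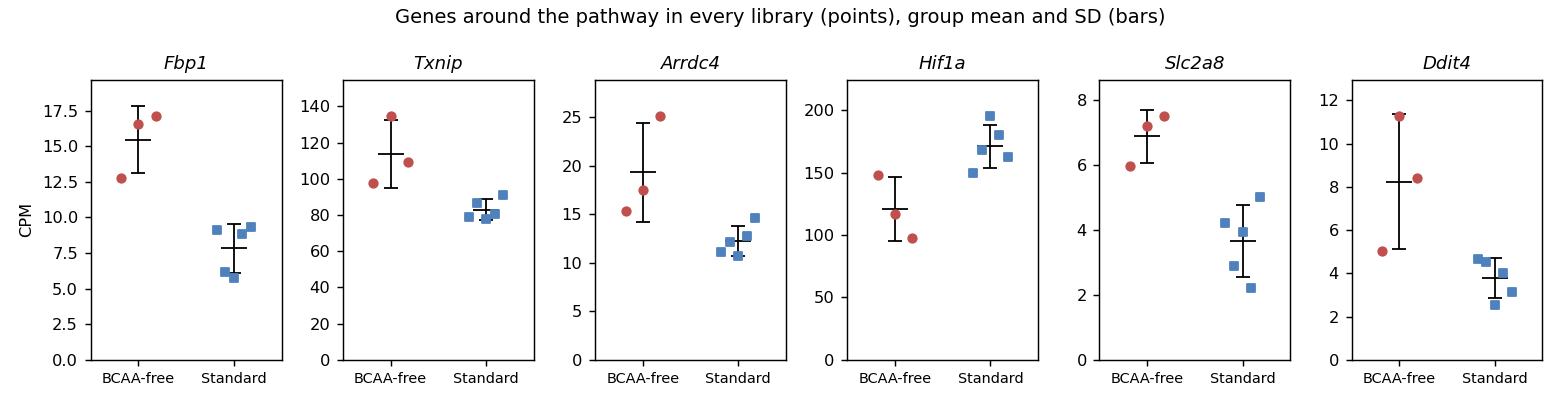
Each panel shows 1 gene around the pathway, with CPM from 0 on the vertical axis, BCAA-free libraries as red circles on the left, standard-diet libraries as blue squares on the right, and group mean and SD in black. Fbp1, Txnip, Arrdc4, Slc2a8 and Ddit4 are higher in all 3 BCAA-free libraries and Hif1a is lower in all 3. Of these, Fbp1 passed in edgeR. Only genes without overlap between the diets are drawn. Pgam1, Pgd, Gbe1 and Ero1a, not drawn, were also lower in all 3 BCAA-free libraries. Over all tested genes, 8.84% did not overlap (4.17% above and 4.68% below).

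Genes induced by HIF-1 in many cell types, apart from glycolysis, numbered 18 tested of 20 listed. None was called by edgeR, 3 had an unadjusted p under 0.05, the log2 fold change was above 0 in 4 and below 0 in 14, and the median was -0.12. Ero1a, an oxidase of protein folding, averaged 264 ± 20.9 CPM in BCAA-free mice and 321 ± 27.8 CPM in standard-diet mice (SD, n = 3 and 5; log2 fold change -0.28, SE 0.10, adjusted p = 0.263). Ddit4, an inhibitor of mTORC1 that stress also induces, was at 5.03, 11.3 and 8.43 CPM in BCAA-free mice and at 4.69, 4.54, 2.54, 4.02 and 3.15 CPM in standard-diet mice (log2 fold change 1.12, SE 0.31, adjusted p = 0.105). DESeq2 called Ddit4 higher (adjusted p = 0.0287). Ddit4 did not pass in the other 15 of 16 alternatives, with an adjusted p of up to 0.657.

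The fates of the sugar and of pyruvate showed no call in edgeR. For pyruvate and lactate, none of 20 tested genes passed, 2 had an unadjusted p under 0.05 and the median was -0.04. The lactate exporters Slc16a1 and Slc16a3 had adjusted p of 0.751 and 0.947, and Pdk1, the kinase that holds back pyruvate dehydrogenase, 0.636. The 2 genes with the smallest p there were Pck2, the mitochondrial phosphoenolpyruvate carboxykinase (log2 fold change 0.47, adjusted p = 0.273), and Pdk3 (-0.31, adjusted p = 0.359). Of the 7 pentose phosphate genes, none passed, 2 had an unadjusted p under 0.05 and 6 had a negative log2 fold change, with a median of -0.12. Pgd, the 6-phosphogluconate dehydrogenase, was at 627, 602 and 642 CPM in BCAA-free mice and at 850, 653, 824, 814 and 756 CPM in standard-diet mice. It was lower in all 3 BCAA-free libraries without passing (log2 fold change -0.32, SE 0.11, adjusted p = 0.192), and Rpe, the epimerase of this route, had -0.35 (adjusted p = 0.315). None of 13 genes of glycogen and sugar entry passed (2 at an unadjusted p under 0.05, median -0.05), the smallest p being those of the branching enzyme Gbe1 (log2 fold change -0.25, adjusted p = 0.323) and the galactokinase Galk1 (0.40, adjusted p = 0.348).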

How the data were processed

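The deposited table held raw counts per Entrez gene in 8 libraries, without normalization by the authors. The submitters' processing notes list mm10, featureCounts and Cell Ranger. What each served for, the aligner and the strand setting were not given in the sources used here. Columns were matched to samples by the description labels and groups came from the titles. RefSeq (GRCm38.p6) gave symbols for 25275 of 27179 identifiers, and the other 1904 stayed in the tests. No 2 libraries of a diet agreed within counting error (chi-square over its degrees of freedom, 19.5 to 61.9).

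Diets were compared across all genes by the quasi-likelihood F test of edgeR 4.0.16 in R 4.3.3, with robust dispersion, with TMM factors, a filter (minimum count 10, minimum total 15), diet as the single term and Benjamini-Hochberg adjustment at 0.05. CPM uses TMM-scaled sizes, and per-kb levels the longest GENCODE transcript matched to a RefSeq mRNA. The common biological coefficient of variation was 23.0%. DESeq2 1.42.0 and limma 3.58.1 were alternatives. Paralog ratios used a pseudocount of 0.5. On simulated counts for 13364 genes of this comparison, the procedure recovered 22 of 67 genes at a 1.5-fold change, 38 of 67 at 2-fold and 53 of 66 at 4-fold, with 4 false calls among 117. Words of 38 bases were compared, on both strands, with all GENCODE M21 transcripts.

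The members, the companion lists and the tests were chosen with earlier results of these data known. The text names all members, 16 fixed genes, called genes of each list (at most 4) or else the 2 with the smallest p, and others where it says so. A gene that the rule on likeness names is not reported here.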

Additional observations from a re-analysis of the deposited data

Results flagged for a closer look

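In the 5 standard-diet libraries, 1 library stood apart from the other 4 in 3 of 44 results, with a gap to its neighbour larger than 0.71 of the range. Chance alone flags about 1 in 20 groups. Ldha was lowest in standard-diet replicate 2, at 378 CPM, where 6 members had their lowest value. Slc2a3 was highest in standard-diet replicate 3, at 34.4 CPM, and the log2 ratio of Slc2a1 to Slc2a3 was lowest there, at -1.31. That library also had the highest sum of mature neutrophil markers, 5918 CPM, and the part of these in the result was not tested. Groups of 3 libraries were not examined in this way.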

How the results depend on the processing

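No member was called higher or lower under any of the 16 alternatives. Over all genes, 29 were called higher and 72 lower, against 69 and 168 with no filter, 131 and 251 in DESeq2, 0 and 0 with the replicate block, and 6 and 41 without BCAA-free replicate 2 and standard-diet replicate 3, an alternative chosen after seeing the data. limma-voom called 15 higher. Leaving out 1 library gave 3 to 78 higher and 29 to 73 lower. Higher calls numbered 14, 3 and 78 without BCAA-free replicates 1, 2 and 3, and 12, 11, 18, 11 and 14 without standard-diet replicates 1 to 5, and lower calls moved by over 1.5-fold without BCAA-free replicates 1 and 2 (38 and 29) and standard-diet replicates 2, 4 and 5 (41, 44 and 39). With the replicate block, 899 genes had an unadjusted p under 0.05. That fit spends a term on each replicate number. Standard-diet replicates 4 and 5 have no BCAA-free partner in it and add nothing to the diet difference. It therefore has less power, and its lack of calls cannot be read as evidence on any gene. Same-numbered libraries of the diets did not deviate together (r = -0.08, -0.05 and -0.30), beside r from -0.127 to 0.185 for libraries with different numbers. So few values cannot tell whether a number stands for something shared, and the libraries were not taken as pairs. Of the 89 companion genes tested, 1 was called higher and 0 lower. The counts were 2 and 1 with no filter and 3 and 1 in DESeq2. Higher calls numbered 0 with RLE size factors, in the non-robust fit, with the replicate block, without the neutrophil-rich pair and whichever library was left out, where lower calls numbered 0 to 1 (Hif1a, without BCAA-free replicate 1). Fbp1, the single call among members and companion genes in the main fit, was lost in 12 of the 16 alternatives, among them the replicate block. Txnip, not called in the main fit, passed in 2 alternatives, Hif1a in 3 and Ddit4 in 1.

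Signs changed for uncalled log2 fold changes. The largest in size were Slc2a3 (0.48) and the ratio Slc2a1 to Slc2a3 (-0.66), which were at -0.37 and 0.037 without BCAA-free replicate 2. With library totals, which shifted the median of all genes to 0.06, Gpi1 was at 0.0067 and Slc16a3 at 0.0020. Without the neutrophil-rich pair Slc16a3 was at 0.15, Ldhb at -0.081 and the ratio Ldha to Ldhb at 0.14, and with the replicate block Ldhb was at -0.14. Leaving out 1 library, the log2 fold change ran from -0.10 to 0.015 for Gpi1, -0.11 to 0.014 for Aldoa, -0.020 to 0.22 for Gapdh, -0.044 to 0.15 for Pkm, -0.0051 to 0.15 for Ldha, -0.37 to 1.07 for Slc2a3, -0.20 to 0.055 for Hk3, -0.13 to 0.00045 for Tpi1, -0.0023 to 0.12 for Eno1b, -0.13 to 0.37 for Ldhb, -0.38 to 0.017 for Slc16a1, -0.30 to 0.11 for Slc16a3, -0.030 to 0.20 for Myc and -0.0090 to 0.26 for Pdk1. The difference in log2 ratio ran from -1.15 to 0.037 for Slc2a1 to Slc2a3, -0.10 to 0.11 for Pfkl to Pfkp and -0.45 to 0.17 for Ldha to Ldhb. The cause was not tested. Low counts limit genes such as Aldoc and Ldhb, and in the simulation 22 of 67 changes of 1.5-fold were recovered.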
